A study of Mus musculus with 2 samples.

Results

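Of the 2546 CD8 T cells kept from a library made under transient glucose restriction (TGR), 390 held 10 or more unique molecular identifiers (UMIs, the count of captured RNA molecules) of Mt1 and Mt2 together. These metallothionein-high cells made up 15.3% of the library (95% exact binomial interval 13.9 to 16.8, counting error only). Cells with fewer than 500 genes, or with 10% or more of their UMIs from the mitochondrial genome, had been left out. Since Mt1 and Mt2 chose the cells, their own levels are a description and not a result. The comparison cells were the 1383 TGR cells with 0 or 1 such UMI. Of these, 333 were paired 1 to 1 with 333 metallothionein-high cells whose UMI totals lay within 10% of theirs. The other 57 metallothionein-high cells, with a median of 22798 UMIs, had no unpaired low cell within that range.

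The cells were CD8+ T cells of OT-I mice, whose transgenic T cell receptor recognises the ovalbumin peptide SIINFEKL. Cells from spleen and lymph nodes received the peptide and interleukin-2 in culture and were then held for 20 h in 1 mM glucose (TGR) or in 11 mM glucose (control). The labels give neither the number of mice nor whether glucose was given back before capture, and their descriptions of the culture time before restriction differ. There was 1 library per condition, made on the 10x Chromium platform. Every value below therefore describes these 2 libraries, cells are not replicates, and no p-value is given. The TGR library held 19696068 UMIs in its kept cells and the control library 14730128 in 3127 cells. Doublets were left in, and 9 kept cell barcodes occurred in both libraries, 2 of them in metallothionein-high cells.

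Metallothioneins are small cysteine-rich proteins that bind zinc, copper and cadmium and buffer free zinc in the cytosol. Mt1 and Mt2 are induced through the zinc-sensing factor MTF1, which binds metal response elements in their promoters, and they also respond to glucocorticoids, oxidants and hypoxia. In CD8 T cells both genes rise on activation, and they have been linked to dysfunction of T cells in tumours. Mt3 and Mt4 are the family members typical of brain and of stratified epithelium.

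All 4 genes lie side by side on the plus strand of mouse chromosome 8 (GENCODE M21 on GRCm38, which is mm10). Mt4 spans 94137197 to 94139031, Mt3 spans 94152607 to 94154146, Mt2 spans 94172664 to 94173568 and Mt1 spans 94179082 to 94180327. Mt1 and Mt2 have 3 exons each and lie 5514 bases apart. Their transcripts, of 549 and 511 bases, share 0 words of 25 bases, so a read of that length from one is not an exact match to the other. The 250 bases before each RefSeq start (GRCm38.p6, plus strand, 5′ to 3′) are shown because the 2 genes chose these cells and moved together. Capitals mark the core of the metal response element, TGCACNC or TGCGCNC on either strand. The windows lie at chr8:94178839-94179088 and chr8:94172368-94172617. The RefSeq starts differ from the GENCODE starts above, so the Mt1 window ends past its GENCODE start and the Mt2 window ends before it.
Mt1: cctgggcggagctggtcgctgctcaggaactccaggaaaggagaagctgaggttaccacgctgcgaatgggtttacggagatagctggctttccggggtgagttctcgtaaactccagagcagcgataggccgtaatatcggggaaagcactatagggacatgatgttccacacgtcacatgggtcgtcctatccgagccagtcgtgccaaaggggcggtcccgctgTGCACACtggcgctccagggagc
Mt2: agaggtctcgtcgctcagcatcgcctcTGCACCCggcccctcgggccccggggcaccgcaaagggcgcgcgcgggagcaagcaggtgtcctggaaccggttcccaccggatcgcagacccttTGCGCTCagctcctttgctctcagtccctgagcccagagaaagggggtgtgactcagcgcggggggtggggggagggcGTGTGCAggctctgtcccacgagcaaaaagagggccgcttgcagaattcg
The Mt1 window holds 1 core, 23 bases before the start, and the Mt2 window holds 3, at 223, 128 and 50 bases before it, the last on the minus strand. In the 50 bases after the start, 2 more cores followed in Mt1 and 1 more in Mt2, which gives 3 and 4 in 300 bases. Of 32851 promoter windows of 300 bases, 25.7% held at least 1 core and 0.517% held 4 or more. A match of letters is not a measured binding site.

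In the metallothionein-high cells the sum of Mt1 and Mt2 ran from 10 UMIs through a median of 16.5 to 259. The median cell held 10 UMIs of Mt1 and 6 of Mt2. All 390 cells had Mt1, and 389 had Mt2, which made up 39.0% of their metallothionein UMIs. These cells held 71.4% of all Mt1 and Mt2 UMIs of the TGR library, whose median cell had 1. The limit of 10 cut through a continuous range, with 57 cells at exactly 8 UMIs, 43 at 9, 46 at 10 and 37 at 11.

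**Figure D1:**
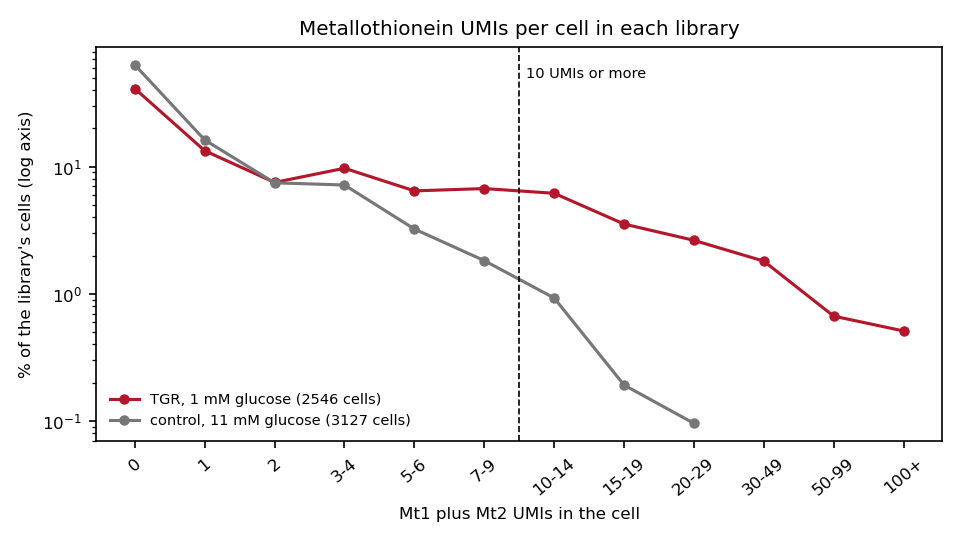
Share of each library's kept cells (log axis) by the number of Mt1 plus Mt2 UMIs in the cell, with the limit of 10 as a dashed line. The TGR curve crosses the limit without a gap and reaches 259 UMIs, while the control curve ends at 24.

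The control library held few such cells. Under the same limit, 38 of 3127 control cells (1.22%, 0.861 to 1.66) were metallothionein-high, and none exceeded 24 UMIs. Mt1 stood at 432 CPM (counts per 1000000 UMIs) in the TGR library and 182 CPM in the control, and Mt2 at 246 and 38.4 CPM. No metallothionein UMI was seen in 41.0% of TGR cells and in 62.9% of control cells. TGR cells were sequenced to a median of 6262 UMIs and control cells to 4028. Thinned to 3000 UMIs each, 94 of 2443 TGR cells (3.85%) and 6 of 2229 control cells (0.269%) reached 10 metallothionein UMIs. This thinning left out 103 TGR and 898 control cells that were shallower. At equal depth the share was thus still higher in the TGR library, although with 1 library each the condition and the library cannot be told apart.

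Cells chosen on either gene alone were also high in the other. TGR cells with 5 or more UMIs of Mt1 had Mt2 at 850 CPM of the group's pooled UMIs, against 21.5 CPM in depth-matched cells with no Mt1, a ratio of 39.3 (31.4 to 50.4, 434 pairs). Mt2 was detected in 91.0% of the former and 13.4% of the latter. TGR cells chosen on 5 or more UMIs of Mt2 had Mt1 at 1638 CPM, against 126 CPM in cells with no Mt2 (13.0-fold, 11.6 to 14.5, 281 pairs). In the control library the same ratios were 50.1 (21.7 to 208, 142 pairs) and 7.28 (4.83 to 11.9, 22 pairs). Across 2443 TGR cells thinned to 3000 UMIs, Mt1 and Mt2 correlated with Spearman's rho of 0.54 and Pearson's r of 0.84, and across 2229 control cells with 0.30 and 0.40. These cells share a library, and within it a depth.

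**Figure D2:**
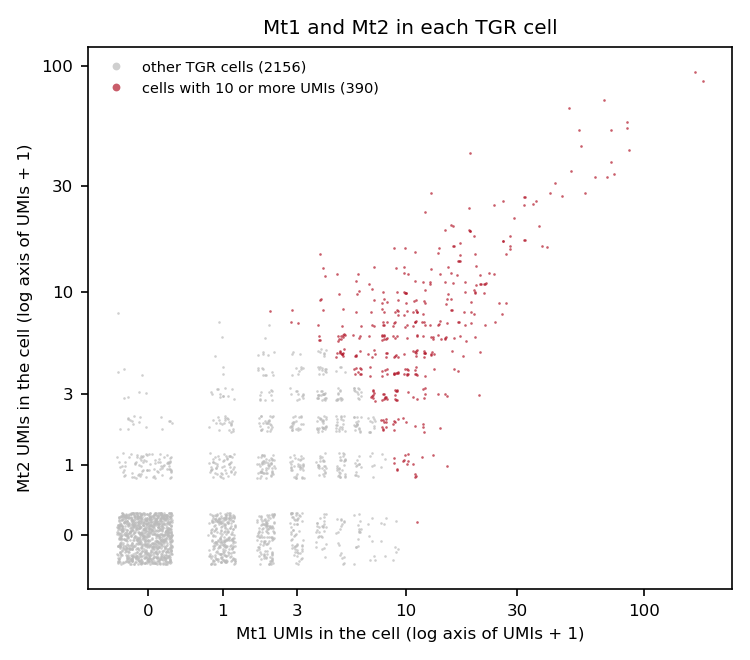
Mt1 against Mt2 UMIs in each of the 2546 TGR cells (log axes of UMIs + 1, points spread slightly so that equal counts are visible). The 390 metallothionein-high cells in red continue the cloud of the other cells upward along both axes.

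Both genes were among the most uneven of the TGR library. At 3000 UMIs per cell, the variance over the mean was 8.84 for Mt1 and 7.26 for Mt2, ranks 3 and 4 of 2749 genes with a mean of at least 0.1 UMI. Only Actb (10.2) and Ccl5 (9.51) were above them. In the control library the values were 2.19 and 1.75, ranks 16 and 37 of 3022 genes.

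The limit counts UMIs, and the share of cells past it rose with depth. With the TGR cells in 5 classes of equal size from the shallowest to the deepest, 3.92%, 4.91%, 14.1%, 20.6% and 33.0% were metallothionein-high. Per 10000 UMIs, Mt1 and Mt2 together stood at 5.33, 4.06, 7.32, 9.25 and 6.39 in the same classes. The level itself did not follow depth in one direction, although 7.32, 9.25 and 6.39 in the deeper classes lay above 5.33 and 4.06 in the shallowest. How much of the rise in share came from counting and how much from level was not tested. After pairing, the 2 groups had medians of 8249 and 8248 UMIs and of 1982 and 2038 genes. Mitochondrial genes took a median of 2.39% and 2.52% of UMIs, and ribosomal protein genes 50.5% and 49.5%.

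The metallothionein-high cells carried the markers of CD8 T cells. Of 390 cells, 384 had at least 3 of the 7 markers matched (Cd8a, Cd8b1, Cd3d, Cd3e, Cd3g, Cd2, Lck). The markers summed to 2044 CPM in the paired metallothionein-high cells and 2403 CPM in their partners, and each of the 7 was lower in the former. For the coreceptor chains, Cd8a stood at 204 against 256 CPM and Cd8b1 at 354 against 455 CPM. All 7 myeloid markers and all 5 erythroid markers were at 0 in all 390 cells. Of the 6 B cell markers 4 were at 0, while Cd79b had 45 UMIs in 41 cells and Cd79a had 1. In the paired groups the B cell list summed to 10.3 against 14.7 CPM. The list of natural killer and innate-like markers summed to 25.8 against 5.35 CPM. Its defining receptors Ncr1 and Klrb1c were at 0, and the difference came from Fcer1g (30 against 1 UMIs), Klre1 (18 against 2) and Tyrobp (16 against 0). The Fcer1g UMIs sat in 7 of the 333 cells and the Tyrobp UMIs in 3, while the Klre1 UMIs sat in 18. Of the dendritic cell markers, 5 of 8 were at 0 and the sum of 54.9 against 35.4 CPM was mostly H2-Ab1 (143 against 85 UMIs). At least 1 of 4 CD4 T cell markers was found in 196 of the 390 cells. In the paired groups that list summed to 81.3 against 69.2 CPM, mostly Ctla4 (247 against 199 UMIs), with Cd4 at 1 against 5 UMIs. The stromal list summed to 22.6 against 27.7 CPM, mostly Pecam1 (69 against 83 UMIs). The part of these marker differences in the results below was not tested.

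With Mt1 and Mt2 left out, 4428 genes reached 20 CPM in either group. The metallothionein-high cells had 95 genes at least 1.5-fold higher, which is 2.15% of those scored, and 123 at least 1.5-fold lower, which is 2.78%. A gene was counted when the 95% exact interval of its split of UMIs between the groups also excluded a ratio of 1. Such intervals cover counting error only and are narrower than the true error, since the molecules of 1 cell are not independent. Differences of 2-fold or more were rarer, with 16 genes higher and 9 lower. The median log2 ratio was -0.02. With size factors from DESeq2 the median became 0.03 and the split 125 higher and 89 lower.

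**Figure D3:**
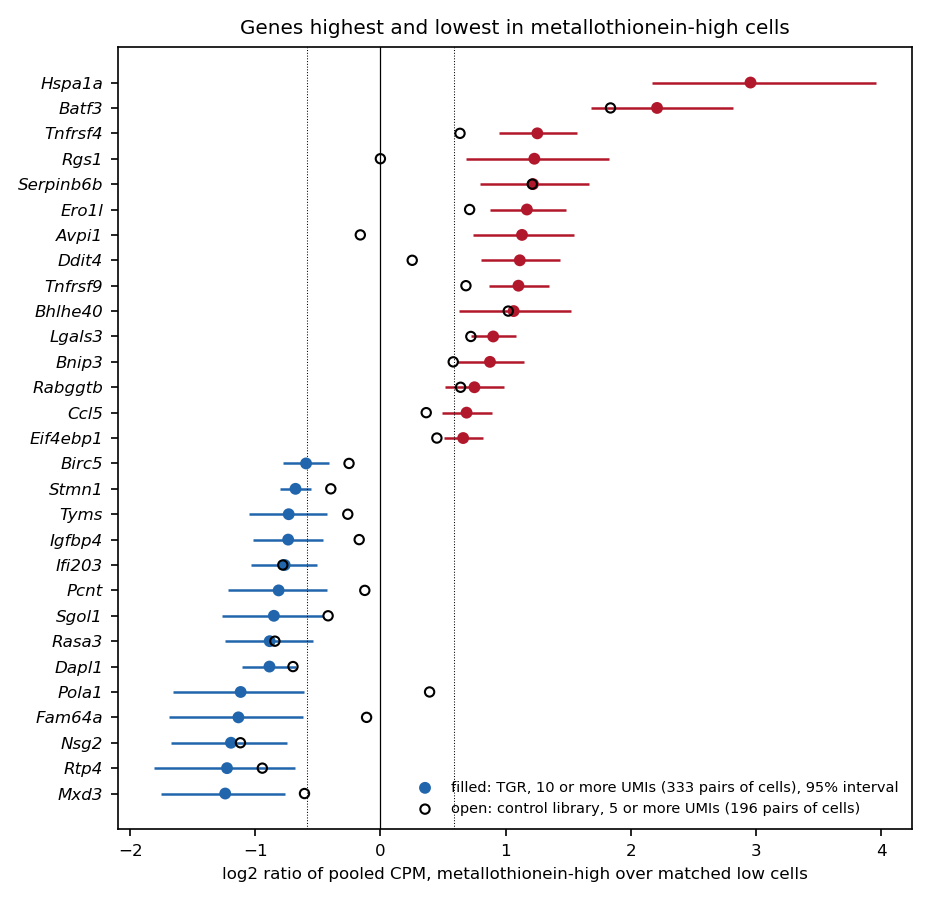
Log2 ratio of pooled CPM for the 15 highest genes and 14 of the 15 lowest, filled for 333 pairs of TGR cells with the 95% interval and open for 196 pairs of control cells; dotted lines mark 1.5-fold. Batf3 lies far to the right in both libraries, while Rgs1, Avpi1 and Pola1 do not differ in the same direction in the control.

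Where a minimum of 30 CPM was set for naming, the gene furthest above its partners by the bound of its interval was Hspa1a, which encodes the stress-induced chaperone HSP70. It had 108 UMIs in the metallothionein-high cells and 13 in the low cells, or 34.9 against 4.34 CPM, a ratio of 7.77 (4.50 to 15.6). These UMIs sat in 15 cells against 1, and the 10 highest cells held 94.4% of them, so most metallothionein-high cells had none. Without cells under 1% mitochondrial UMIs the ratio was 3.33. No other gene of the heat shock list passed 1.5-fold, and 1 of its 12 scored genes did in all. Hspa8 stood at 0.971 and Hsp90ab1 at 1.06 of the low cells' level, while Dnajb1, a co-chaperone, reached 1.45 (1.18 to 1.79).

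Batf3, which encodes an AP-1 family transcription factor that supports the survival of memory CD8 T cells, was the next. It had 160 against 33 UMIs, 51.6 against 11.0 CPM and a ratio of 4.63 (3.20 to 7.03). It was detected in 23.4% of the metallothionein-high cells and 7.21% of the low cells. Its UMIs were spread more widely than those of Hspa1a, with 34.4% in the 10 highest cells. Of 9 scored transcription factors of effector cells, 4 were higher and 0 lower, with a median log2 ratio of 0.52. Besides Batf3 these were Bhlhe40 at 2.09 (1.55 to 2.88), Zbtb32 at 1.60 (1.16 to 2.26) and Id2, which promotes effector differentiation, at 1.59 (1.22 to 2.08). Runx3 (0.998) and Batf (1.12) did not differ by 1.5-fold. When cells were chosen on Mt1 alone, 2 of the 9 were higher and the median fell to 0.03.

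Genes known as targets of the hypoxia-inducible factor HIF1 were the list with the largest share of higher genes. Of 18 listed outside glycolysis, 13 were scored, 7 were higher and 0 lower, against 2.15% and 2.78% of all scored genes, with a median log2 ratio of 0.71. Ddit4, an inhibitor of mTORC1, stood at 88.4 against 40.8 CPM (2.16-fold, 1.75 to 2.71). Bnip3, a mitophagy receptor, stood at 107 against 58.1 CPM (1.83-fold, 1.52 to 2.22). The oxygen-sensing prolyl hydroxylases Egln3 and Egln1 were 1.82-fold (1.30 to 2.59) and 1.79-fold (1.40 to 2.30) higher. The histone demethylase gene Kdm3a was 1.80-fold and the lipid droplet gene Hilpda 1.63-fold higher. Ddit4 and Bhlhe40, the seventh gene, also belong to other lists given here.

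Not all genes of this list moved the same way. Higd1a was 1.42-fold higher and Bnip3l 1.19-fold, both short of the limit, P4ha1 was level at 1.01, and Pdk1, which restrains pyruvate entry into mitochondria, stood at 0.790 (0.648 to 0.961). The list kept 4 to 8 higher and 0 lower genes under each of 16 alternatives (other pairings, limits, scalings and subsets of cells), all within the same library. Ero1l, which encodes an oxidase of disulfide formation in the endoplasmic reticulum, stood at 98.8 against 43.8 CPM (2.25-fold, 1.83 to 2.79).

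Glycolytic genes differed less. Of 15 scored, 1 was higher, the phosphoglycerate mutase gene Pgam1 at 1.5 (1.33 to 1.69), and 0 were lower, with a median log2 ratio of 0.26. Tpi1 stood just below the limit at 455 against 304 CPM, Ldha at 1051 against 790 CPM (1.33-fold), Slc2a3 at 1.38 and Gapdh at 1.19. None of the 77 scored genes of oxidative phosphorylation or the 12 of the mitochondrial genome passed 1.5-fold either way.

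Among receptors that costimulate activated T cells, 2 were higher. Tnfrsf4, which encodes OX40, stood at 97.5 against 40.8 CPM (2.39-fold, 1.93 to 2.97) and was detected in 48.6% against 25.8% of cells. Tnfrsf9, which encodes 4-1BB, stood at 149 against 69.2 CPM (2.15-fold, 1.82 to 2.55). They were the genes past 1.5-fold among 17 scored for activation and costimulation, with 0 lower, with a median log2 ratio of 0.16. Il2ra, the interleukin-2 receptor alpha chain, was 1.46-fold higher (1.27 to 1.69) and Tnfrsf18 1.33-fold, short of the limit. Cd69 was level at 1.03, and Cd27 stood at 0.770.

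Of 8 scored cytotoxic genes, 2 were higher and 0 lower. Serpinb6b, a serpin of cytotoxic lymphocytes, had 155 against 64 UMIs (2.33-fold, 1.74 to 3.18). Gzma had 64 against 3 UMIs, but 2.70% of cells held all 64. Granzyme B was widespread, at 535 against 419 CPM (1.28-fold, 1.19 to 1.38). Ccl5, a chemokine of effector and memory cells, stood at 176 against 109 CPM (1.61-fold), and without cells under 1% mitochondrial UMIs this became 1.12, no longer past the limit. Lgals3, which encodes galectin-3, stood at 241 against 129 CPM (1.87-fold, 1.65 to 2.12). Rgs1 (2.35), Avpi1 (2.19) and Rabggtb (1.68) completed the 15 highest genes together with Eif4ebp1.

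Eif4ebp1, a repressor of cap-dependent translation and a target of ATF4, stood at 297 against 187 CPM (1.58-fold, 1.42 to 1.76). ATF4 drives transcription in the integrated stress response. Of its 20 scored targets, 4 were higher (Nupr1 at 2.29, Ddit4, Eif4ebp1 and Asns at 1.5) and 0 lower, with a median log2 ratio of 0.20. Atf4 itself stood at 1.16 (1.06 to 1.27). Ddit3, which encodes CHOP, was at 271 against 285 CPM (0.951, 0.864 to 1.05), and 3 or more of its UMIs were found in 43.8% of metallothionein-high cells and 43.2% of low cells. The 2 shares differed by less than their counting error. None of 18 scored genes of the unfolded protein response passed 1.5-fold. Of the p53 targets 1 of 12 was higher, the cell cycle inhibitor Cdkn1a at 94.6 against 56.1 CPM (1.68-fold, 1.39 to 2.05). Of the antioxidant genes under NRF2, 0 of 17 were higher and 1, Gclc, was lower.

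No scored gene of zinc, copper or iron handling passed 1.5-fold, and most zinc genes were too low to score. Of 26 genes listed, Mt1 and Mt2 were left out because they chose the cells, and of the others 1 reached 20 CPM, the importer Slc39a6 at 18.7 against 21.4 CPM (0.876, 0.603 to 1.27). The zinc exporter gene Slc30a1, like the metallothioneins a target of MTF1, had 8 against 7 UMIs (1.10, 0.350 to 3.58). Mtf1 had 44 against 34 UMIs (1.25, 0.781 to 2.02). These intervals are wide, so a ratio anywhere from 0.350 to 3.58 in Slc30a1 was not excluded at this depth. Mt3 was under the minimum for scoring, with 17 against 4 UMIs (3.77, 1.34 to 16.8). Mt4, Slc30a3, Slc30a10 and Slc39a2 had 0 UMIs in both groups. None of the 5 copper genes or 7 iron genes scored passed 1.5-fold. Ferritin light chain (Ftl1) stood at 1.16 and heavy chain (Fth1) at 0.943.

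Of 16 scored genes of naive and memory T cells, 0 were higher and 4 lower, with a median log2 ratio of -0.45. Dapl1 stood at 87.8 against 162 CPM (1.85-fold lower, 1.59 to 2.15). Igfbp4 stood at 56.5 against 94.2 CPM (1.67-fold lower, 1.38 to 2.03). Klf2, a transcription factor that maintains the egress receptor gene S1pr1, stood at 84.2 against 130 CPM (1.55-fold lower). Others fell short of the limit in the same direction, Tcf7 at a ratio of 0.667 (0.593 to 0.749), S1pr1 at 0.670 and Lef1 at 0.708. Ccr7 stood at 0.838 and Id3 at 0.972. In cells called S or G2/M 1 gene of this list was lower, and in cells called G1 8 were. Both counts lack the share of all scored genes lower within the phase, so they do not compare the phases.

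Of 14 scored genes induced by type I interferon, 0 were higher and 6 lower, with a median log2 ratio of -0.55. Rtp4 had 40 against 91 UMIs (2.34-fold lower, 1.61 to 3.51) and Isg15, a ubiquitin-like modifier, 33 against 72 (2.24-fold lower, 1.48 to 3.52). Ifi203 stood at 62.3 against 106 CPM (1.70-fold lower, 1.42 to 2.04) and was detected in 34.2% against 55.0% of cells. Irf7, the transcription factor that amplifies this response, stood at a ratio of 0.583, Rnf213 at 0.651 and Xaf1 at 0.661. The most abundant gene of the list, Ifi27l2a, stood at 532 against 794 CPM (1.49-fold lower), just short of the limit. Ly6a stood at 0.774. Among cells called S or G2/M, 1 of the 14 was lower, and among those called G1, 8 were. The shares of all scored genes lower within each phase are not given, so these counts do not compare the phases.

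**Figure D4:**
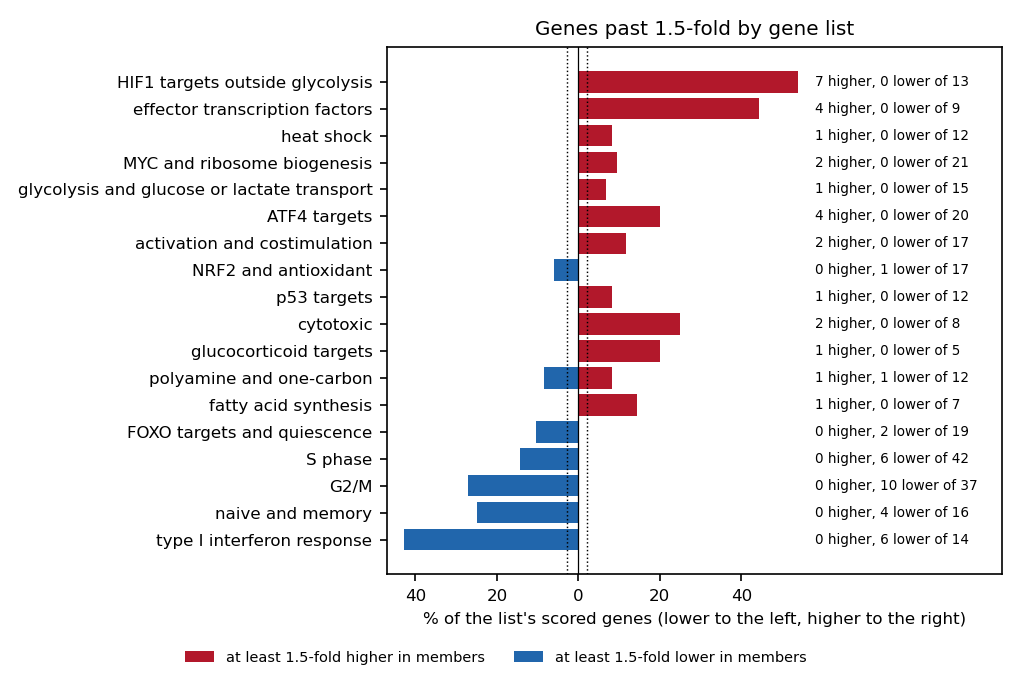
Share of each list's scored genes at least 1.5-fold higher (right) or lower (left) in metallothionein-high cells, for the lists with 5 or more scored genes and at least 1 such gene, ordered by median log2 ratio. Dotted lines mark the shares over all scored genes, 2.15% and 2.78%; HIF1 targets lead on the right with 7 of 13 and interferon genes on the left with 6 of 14.

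At matched depth, of 37 scored genes of G2/M, 0 were higher and 10 lower (median log2 ratio -0.43), and of 42 of S phase, 0 were higher and 6 lower (median -0.30). Stmn1, a microtubule destabiliser of dividing cells, stood at 271 against 434 CPM (1.60-fold lower, 1.47 to 1.75). Birc5, which encodes survivin, stood at 132 against 199 CPM (1.51-fold lower), and Mki67 at 112 against 170 CPM. Tyms, the thymidylate synthase gene, was 1.66-fold lower and Pola1, a subunit of DNA polymerase alpha, 2.17-fold lower (1.53 to 3.16). Mxd3 (2.36-fold), Nsg2 (2.29-fold), Fam64a (2.2-fold), Rasa3 (1.85-fold), Sgol1 (1.80-fold) and Pcnt (1.76-fold) were also among the 15 lowest genes.

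Phase calls, made from scores of the same gene lists after thinning each cell to 1500 UMIs, moved alongside. Of the paired metallothionein-high cells 46.8% (41.4 to 52.4) were called S or G2/M, against 62.5% (57.0 to 67.7) of their low partners. Over all 390 metallothionein-high cells the share was 52.3%, and over all 1383 low cells, which were shallower, 46.0%. The direction of the G2/M genes rested on the pairing. Without it, 0 of the 37 were lower and their median log2 ratio was 0.00, with pairing inside the same phase 3 were lower, and with all cells thinned to 3000 UMIs 3 were higher and 0 lower. Of the 42 S phase genes, 1 was lower without pairing (median -0.14) and 6 were lower when thinned (median -0.26), with 0 higher in either. Depth moved with phase, with medians of 5346 UMIs in G1, 6477 in S and 7838 in G2/M. Metallothionein-high cells were found in every phase, as 13.9% of cells in G1, 12.6% in S and 18.6% in G2/M. The level did not follow that order, with Mt1 and Mt2 together at 7.57 per 10000 UMIs in G1, 5.48 in S and 6.38 in G2/M. Of the HIF1 targets, 5 of 13 were higher among cells called G1 (median log2 ratio 0.42) and 8 of 13 among cells called S or G2/M (median 0.87), and the difference between phases was not tested. Shares of all scored genes higher within each phase are not given beside these counts.

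Across 5 bands of metallothionein UMIs, 12 of the 15 highest genes went up at every step and 7 of the 15 lowest went down at every step. The same count over all scored genes was not made. These genes were chosen for differing between cells with 0 or 1 UMI and cells past the limit, so the order of the end bands was largely set by the choice. Batf3 stood at 9.69 CPM in cells with 0 or 1 UMI, 19.4 with 2 to 4, 34.9 with 5 to 9, and 55.9 with 20 or more. Cdkn1a went from 43.7 through 55.1, 70.3 and 94.0 to 115 CPM, and Ero1l from 36.0 through 48.8 and 51.1 to 73.3 CPM with 10 to 19 UMIs. On the other side, Klf2 went from 164 through 116, 96.3 and 91.8 to 77.0 CPM, and Rtp4 from 40.5 through 21.0, 16.8 and 15.5 to 11.4 CPM. Dapl1 reached its lowest value, 79.6 CPM, with 10 to 19 UMIs. Cells in these bands were not matched on depth, and their median UMIs went from 5251 with 0 or 1 metallothionein UMI through 6981.5, 8265 and 9180 to 9282. Ddit4 went from 38.9 through 44.4, 50.8 and 80.7 to 89.0 CPM, with its widest step at the limit of 10. Sgol1 (36.8, 45.5, 45.2, 36.1 and 36.1 CPM) and Ccl5 (115, 155, 177, 134 and 222 CPM) followed no single direction.

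**Figure D5:**
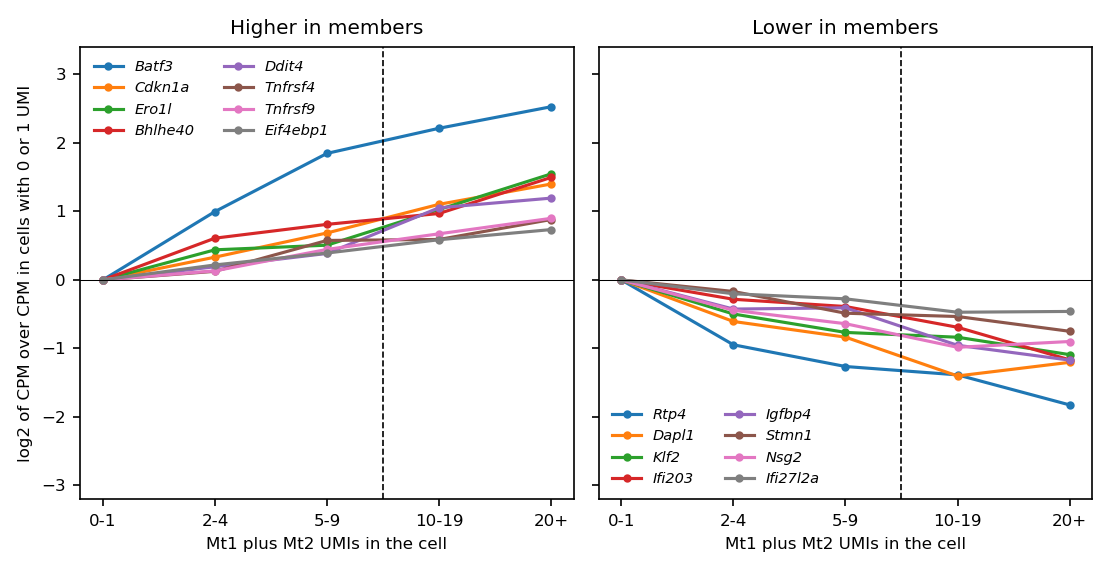
Log2 of pooled CPM over that of TGR cells with 0 or 1 metallothionein UMI, for cells with 0 to 1, 2 to 4, 5 to 9, 10 to 19 and 20 or more (1383, 438, 335, 247 and 143 cells); the dashed line is the limit of 10. Batf3 climbs most, and most of its climb lies below the limit.

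The control library, which did not choose these cells, was read the same way. Its 38 metallothionein-high cells held 277509 UMIs, so single genes were poorly counted. Of 5064 genes scored there, 3.2% stood at least 1.5-fold above and 3.04% below matched low control cells. With the limit lowered to 5 UMIs, chosen after the data were seen, 196 pairs gave 3.5% of 4713 genes higher and 2.82% lower. Among the 15 genes highest in TGR, 12 had the same sign at either limit, and 7 and 8 passed 1.5-fold. Among the 15 lowest, 12 and 14 had the same sign, and 4 and 5 passed. The share of all scored genes with the same sign in both libraries is not given, so the sign counts have no baseline.

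Named genes in the control are given first at the limit of 5, while the TGR ratios above used the limit of 10. Batf3 stood at 147 against 40.9 CPM in the control (3.58-fold, 2.66 to 4.95), higher in both groups than in the TGR library. Cdkn1a stood at 52.0 against 11.9 CPM (4.27-fold, 2.52 to 8.07), Serpinb6b at a ratio of 2.32, Bhlhe40 at 2.03, Lgals3 at 1.65, Ero1l at 1.64, Tnfrsf9 at 1.61 and Tnfrsf4 at 1.55. Ddit4 (1.19, 0.773 to 1.86), Rgs1 (1.00) and Avpi1 (0.895) did not pass. Hspa1a had 0 UMIs in both control groups, so no ratio is given. Dapl1 stood at 140 against 228 CPM, Ifi203 at a ratio of 0.582 and Nsg2 at 0.461, all past 1.5-fold lower. At the limit of 10, as in TGR, the control ratio of Batf3 was 7.42 (3.87 to 17.7). That of Tnfrsf9 was 3.47 (1.62 to 9.17) and that of Ero1l 3.10 (1.48 to 7.73), all above their TGR ratios. Serpinb6b (1.77), Lgals3 (1.73), Bhlhe40 (1.44) and Tnfrsf4 (1.26) stood below theirs, with intervals that included 1. The lists in the control are given at both limits. Of the HIF1 targets, 3 of 12 scored were higher at the limit of 10 (Bnip3, Egln1 and Kdm3a, median log2 ratio 0.48) and 1 of 13 at the limit of 5 (Bhlhe40, median 0.25), with 0 lower at either. Of the effector transcription factors, 2 and 3 of 10 were higher and 0 lower. Of the interferon genes, 3 and 2 of 8 were lower and 0 higher. Of the naive and memory genes, 6 of 17 were lower and 3 higher at the limit of 10, and 3 of 16 were lower and 1 higher at the limit of 5. The difference between the libraries' ratios was not tested.

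Promoter letters offered a description of the 15 highest genes. RefSeq windows matched 10 of their symbols and 10 of the 15 lowest. The hypoxia response element core is ACGTG or GCGTG on either strand. It occurred in at least 1 window of 7 of the 10 highest and 5 of the 10 lowest genes, against 43.8% of all 32851 windows. The metal response element core occurred for 3 of 10 and 6 of 10 genes, against 25.7% of windows. Tnfrsf9 and Rabggtb had more than 1 window, so a share by gene is not the same measure as a share by window. With 10 genes each, these shares say nothing about which factors act on them.

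Detection of 3 other genes with uneven levels was also compared. Cox6a2, which encodes a muscle-type cytochrome oxidase subunit, was detected in 34.5% of the paired metallothionein-high cells and 33.9% of the low cells. Hmox1, which encodes heme oxygenase 1, was detected in 10.8% and 7.21% of cells, and Trib3, an ATF4 target, in 65.8% and 58.9%, with overlapping intervals.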

How the data were processed

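Single-cell RNA was measured in 1 control and 1 TGR library. The authors deposited whole-number UMI counts per gene and cell barcode, not normalized. Cell Ranger 2.2, Seurat 3 and mm10 are named in the submitters' processing notes, without their roles; whether barcodes were filtered is not given in the sources used here. The members and gene lists were chosen with earlier results of these data known, so no list is independent evidence.

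Pairing used UMIs without Mt1 and Mt2, the deepest cell first, without replacement. UMIs were pooled per group, and ratios had 0.5 UMI added per group, scaled by its size. Intervals are exact Clopper-Pearson bounds at 95%. The text names the 15 highest and 15 lowest genes with at least 30 CPM by the interval bound nearest 1 (predicted genes, receptor segments and pseudogenes passed over), the 2 largest and 2 most abundant genes of each of 33 lists, and the zinc genes. A few genes are not reported here. Other genes named (such as Il2ra, Egln1, Tcf7 and Irf7) are list members chosen after their values were seen. Phases were scored with scanpy 1.11.5. The steps were tested on simulated data. edgeR 4.0.16 and DESeq2 1.42.0 supplied only scaling factors. Kept cells, thinning, phases, limits and minimum CPM were varied.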

Additional observations from a re-analysis of the deposited data

How the results depend on the processing

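No paired analysis was possible because each condition has 1 library. Against 95 genes higher and 123 lower, no pairing gave 56 and 81, thinning to 3000 UMIs 155 and 197, a limit of 5 UMIs 51 and 55, a limit of 20 UMIs 168 and 255, totals without ribosomal protein and mitochondrial genes 202 and 213, a minimum of 50 CPM 24 and 20, and no minimum 294 and 307. Cells called G1 alone gave 164 higher. Leaving out cells under 1% mitochondrial UMIs, added after the data were seen, gave 95 and 119, and leaving out the deepest 10% of members gave 99 and 137. The share of metallothionein-high cells was 3.85%, 28.5% and 5.62% in TGR and 0.269%, 6.27% and 0.0959% in control with thinning, a limit of 5 and a limit of 20. The 15 highest genes were higher under each of 16 alternatives, with 13 to 15 past 1.5-fold. All alternatives used the same library, and many of the same cells. Members shared with the main comparison were 332 of 332 with pairing inside the phase, 292 of 385 by the highest metallothionein share and 311 of 585 at the limit of 5. Agreement for genes chosen in the main comparison was therefore largely built in, and the share of all scored genes keeping their side was not counted. Of the 15 lowest, 14 or 15 stayed lower and 8 to 15 passed. Ratios that changed sides of 1 were Kif22 (1.22), Gnl3 (0.990) and Sgol1 (1.06) when thinned, Gclc without pairing (1.04) and on Mt2 alone (1.08), and Birc5 in G1 (1.03). The causes were not tested. Few UMIs limit the zinc genes.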

Other observations

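A small share of the metallothionein-high cells had a low share of mitochondrial RNA, whose median over all 390 cells was 2.45% of UMIs. Of the 390 cells, 17 (4.36%, 2.56 to 6.89) had under 1% of their UMIs on mitochondrial genes, against 19 of 1383 low cells (1.37%, 0.829 to 2.14) and 1 of the 333 paired low cells. Their median was 31 metallothionein UMIs and 1515 genes. They held 49.6% of the Hspa1a UMIs and 24.0% of the Ccl5 UMIs of all metallothionein-high cells. Ddit4 was 3.89-fold higher in them than in the other 373 (2.61 to 5.64). Ptpn7, Mgst2 and Dock2 had 0 UMIs in the 17 cells and 424, 390 and 382 in the others, which held far more UMIs in all. The upper bounds of the 3 ratios were 0.369, 0.402 and 0.410, so a level up to there was not excluded in the 17 cells. These genes were chosen after their values were seen.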
